A study of Mus musculus with 14 samples.

Results

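The genes described here encode the collagens outside the type IV network of basement membranes, the lysyl oxidases that cross-link them, and 5 proteins that bind or organise matrix fibrils. They were chosen by name: every probe whose gene name was that of a collagen chain other than Col4a1 to Col4a6, and every probe for Lox, Loxl1 to Loxl4, Lum, Dcn, Fmod, Bgn or Efemp1. This gave 79 of the 41174 non-control probes, for 44 of the 23647 genes tested. All 44 genes had at least 1 probe above background in at least 1 replicated group, and 72 of the 79 probes did.

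Fibrillar collagens (types I, II, III, V, XI, XXIV and XXVII) are triple helices that assemble into the banded fibrils of connective tissue. Other collagens sit on the surface of those fibrils, form beaded filaments or hexagonal networks, anchor an epithelium to the stroma beneath it, or span the cell membrane. Lysyl oxidases oxidise lysines so that neighbouring helices become covalently joined, and small leucine-rich proteoglycans such as decorin and lumican bind fibrils and regulate their width and spacing. In the mammary gland, fibrillar collagen is known as a product of stromal fibroblasts, whereas the basal epithelial layer makes type XVII and type VII collagen, which fasten it to the underlying matrix.

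RNA of flow-sorted mouse mammary cells was hybridised to 14 Agilent 2-colour arrays. Each array set 1 sorted sample (Cy5) against the same reference (Cy3), a commercial RNA pooled from 11 mouse cell lines. Wild-type FVB/N-J mice, virgin or pregnant, gave 3 populations with 2 arrays each. P4 is labelled CD24+CD29hi and enriched for mammary stem cells, P5 carries the same gate in its label but is named as enriched for luminal progenitors, and P6 is CD24lo and called differentiated epithelium. Virgin L2G85 mice, a luciferase and GFP transgenic line on FVB/N, gave 1 array of Lin-/GFPhi cells, labelled stem cell enriched, and 1 of Lin-/GFPlo cells, labelled depleted. Age, stage of pregnancy, pooling of animals and the promoter of the transgene are not given in the sources used here. The labels do not say that the 2 arrays of a group came from separate animals, so the p-values rest on a spread that may be technical.

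The probes and promoters that the results turn on are shown first. A collagen triple helix is built of Gly-X-Y repeats, and a glycine codon is GGN. Of the 79 probes, 4 held at least 4 GGN codons in 1 frame of 9 bases, and 3 of them held at least 6. They are shown 5′ to 3′ as the files give them, with those codons in capitals, because these 3 read the triple helix along their length, that of Col13a1 over only a part, and because the Col5a1 probe did not follow the other Col5a1 probe. The probe positions, from the files, are on mouse build mm7 and can span introns: chr2:27994034-27996457 (+) for Col5a1, chr9:20655471-20656200 (-) for Col5a3, chr17:32131401-32131567 (+) for Col11a2 and chr10:61385926-61386295 (-) for Col13a1.
Col5a1 A_52_P237371: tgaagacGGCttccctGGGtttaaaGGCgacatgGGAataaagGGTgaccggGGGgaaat
Col5a3 A_52_P503796: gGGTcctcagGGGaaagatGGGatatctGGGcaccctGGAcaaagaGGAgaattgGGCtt
Col11a2 A_52_P563285: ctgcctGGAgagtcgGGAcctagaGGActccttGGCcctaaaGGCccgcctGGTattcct
Col13a1 A_52_P147487: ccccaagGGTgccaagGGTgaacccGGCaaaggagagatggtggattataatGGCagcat

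Both Col2a1 probes below are printed because they overlap by 40 bases, in capitals, and yet gave different values. They lie on the minus strand of mm7 at chr15:97979237-97979296 and chr15:97979257-97979316.
Col2a1 A_51_P317141: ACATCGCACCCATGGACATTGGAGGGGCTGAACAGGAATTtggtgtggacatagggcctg
Col2a1 A_52_P216436: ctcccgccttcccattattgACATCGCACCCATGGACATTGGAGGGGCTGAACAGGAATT

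The 250 bases before the start of Col1a2 and Col3a1, which were highest in P6, and of Col17a1, which was highest in P4, are shown from RefSeq on GRCm38.p6, at chr6:4505368-4505617 (+), chr1:45311288-45311537 (+) and chr19:47692043-47692292 (-). The RefSeq table held a promoter for 31 of the 44 genes. The letters CCAAT (the CCAAT box), TATAAA (the TATA box) and GGGCGG (a GC box) were searched on both strands, and in these windows no match overlapped another. Matches are in capitals, and ATTGG is CCAAT on the opposite strand. Over the same 250 bases of all 32851 promoters, 33.8% held CCAAT, 12.4% TATAAA and 32.7% GGGCGG. The Col1a2 window held 2 matches of GGGCGG and 1 of CCAAT, that of Col3a1 held 1 TATAAA, and that of Col17a1 held 2 TATAAA and 1 CCAAT. A match is a run of letters and not a measured site.
Col1a2: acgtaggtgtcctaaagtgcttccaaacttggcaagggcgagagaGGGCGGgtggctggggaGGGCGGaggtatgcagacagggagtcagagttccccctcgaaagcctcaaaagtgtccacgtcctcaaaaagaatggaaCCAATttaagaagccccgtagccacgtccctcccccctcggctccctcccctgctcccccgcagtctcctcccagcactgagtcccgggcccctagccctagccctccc
Col3a1: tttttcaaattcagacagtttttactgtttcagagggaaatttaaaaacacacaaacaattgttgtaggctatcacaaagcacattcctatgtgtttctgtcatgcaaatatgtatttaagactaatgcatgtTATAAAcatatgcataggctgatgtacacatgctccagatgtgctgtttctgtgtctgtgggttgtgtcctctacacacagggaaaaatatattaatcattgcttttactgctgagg
Col17a1: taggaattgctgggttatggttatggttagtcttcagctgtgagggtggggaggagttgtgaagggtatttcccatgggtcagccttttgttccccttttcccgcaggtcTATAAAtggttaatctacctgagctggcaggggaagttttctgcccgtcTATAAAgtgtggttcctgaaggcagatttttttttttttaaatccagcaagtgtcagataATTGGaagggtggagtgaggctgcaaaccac

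All values below are Cy5 over Cy3 on the log2 scale, so a value describes 1 gene across arrays and gives no order between genes. A difference was called where its Benjamini-Hochberg adjusted p from limma, over all genes tested, was below 0.05. The median Cy5 brightness of an array was between 70.9 and 196, and 66.4% to 86.7% of its probes stood well above background. Spots saturated in Cy5 numbered 111 to 236 on the 3 arrays of scan 3 (pregnant replicate 1 of each population) and 0 to 15 elsewhere, and 9 of the 44 genes (Col1a1, Col1a2, Col2a1, Col3a1, Col5a1, Col5a3, Col6a3, Dcn and Lum) were saturated on pregnant P6 replicate 1. The marker lists did not bear out every label. In P6, called differentiated epithelium, the luminal keratin Krt8 read -1.15 and -1.01 in virgin and -3.77 and -3.08 in pregnant mice, below P4 and P5. Krt8 was among the 14 luminal markers, whose array means were 0.37 and 0.90 in virgin P6 and -1.04 and -0.52 in pregnant P6. Those means were 1.01 to 1.65 in P4 and 1.43 to 4.09 in P5. For virgin P4 minus P6, 5 of the 14 were higher, 1 was lower and 8 were not called. The array means of 12 fibroblast markers, none of them a gene described here, were 2.95 to 3.32 on the 4 P6 arrays, -0.88 to -0.65 on the 4 P4 arrays and -1.73 to -1.52 on the 4 P5 arrays. All 12 fibroblast markers were well above background in P6, and Tcf21 was the only one that was so on no array of virgin P4, virgin P5 or pregnant P5. The array means of 12 basal markers were 3.50 to 5.79 in P4 and 0.09 to 1.91 in P5 and P6.

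Most of these genes were highest in P6. Of the 44, 26 (59.1%) had their highest mean of the 3 populations in P6 in both virgin and pregnant mice, against 17% of all genes. P4 was highest in both conditions for 6 (13.6%, against 13.9%) and P5 for 2 (4.55%, against 19.1%). In virgin mice, P4 was lower than P6 for 20 genes and higher for 7. Of all genes 10.4% were called there, 5.47% lower and 4.9% higher. P5 was lower than P6 for 27 and higher for 4, with 16.2% of all genes called, 8.82% lower and 7.34% higher. In pregnant mice the counts were 20 lower and 5 higher for P4, with 12.1% of all genes called, 5.87% lower and 6.21% higher. For P5 they were 28 lower and 2 higher, with 27% of all genes called, 13.2% lower and 13.8% higher. The median difference over the 44 genes was -0.46 for virgin P4 minus P6 beside 0.04 over all genes. It was -2.29 for pregnant P5 minus P6 beside 0.05, and -2.09 and -1.03 for virgin P5 minus P6 and pregnant P4 minus P6, where the median of all genes was within 0.01 of 0. P4 stood above P5 for 15 genes and below it for 2 in virgin mice (median 0.95), where 11.4% of all genes were called, 6.57% higher and 4.82% lower. In pregnant mice the counts were 18 and 2 (median 0.74), with 22.6% of all genes called, 11.7% higher and 10.9% lower. In none of these called contrasts did the arrays of the 2 groups overlap. A call on 2 arrays a group makes this likely, so it is no further support, and overlap was not counted over all genes.

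**Figure D1:**
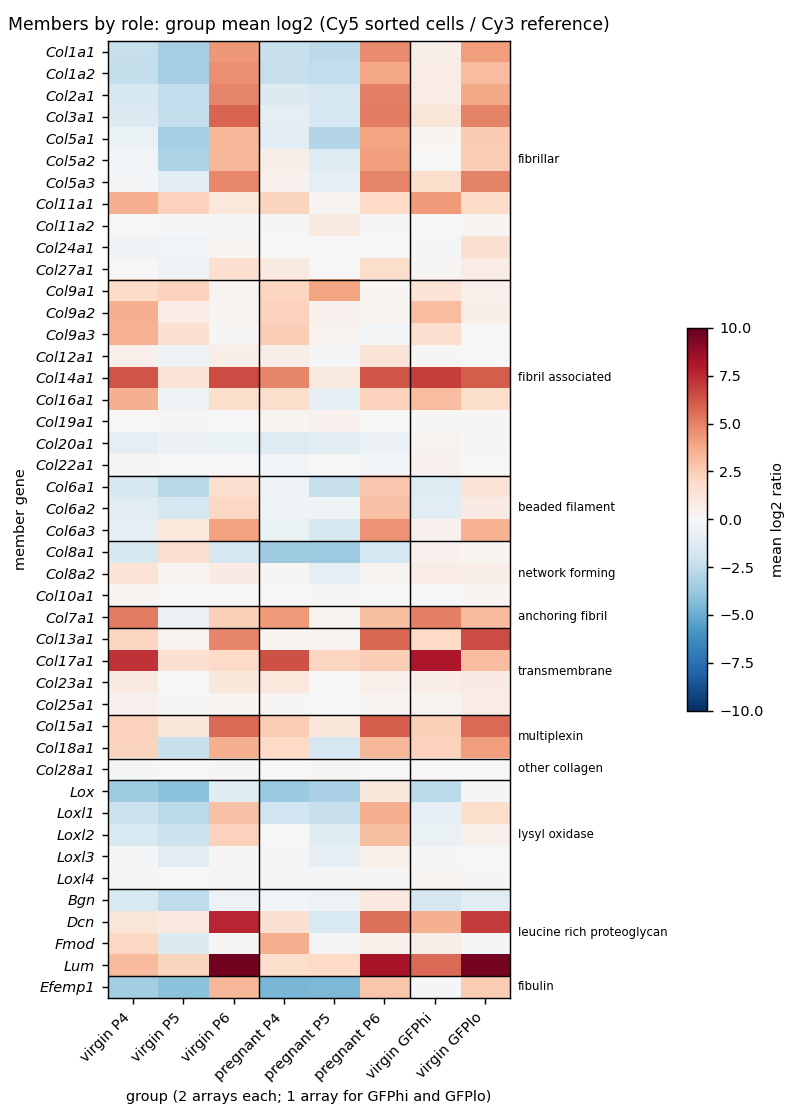
Each row is a gene, ordered by role, and each column a group (2 arrays each, 1 for GFPhi and for GFPlo), with colour for the mean log2 ratio over the reference. Type I, II, III, V and VI collagen rows are higher in the P6 columns than in the P4 and P5 columns, and Col17a1, Col9a2 and Col9a3 are high in the P4 columns.

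The differences from P6 moved with the fibroblast markers. All 12 of those markers were lower in P4 and all 12 lower in P5 than in P6 in virgin mice, and 11 and 12 were in pregnant mice. Their part in the collagen differences was not tested, and in these bulk samples fewer cells of a type and less RNA per cell cannot be told apart. Called genes kept their direction within each scan in each of the 6 population contrasts. This follows from the lack of overlap and does not test the scan. The median over all genes described here for P5 minus P6 was -1.71 and -2.62 within the 2 scans of virgin mice. It was -2.53 and -2.13 within the 2 scans of pregnant mice.

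By the brightest probes, fibrillar collagens held the largest difference of all 44 genes, that of Col3a1 between virgin P5 and P6 (-8.21 ± 0.82 (SE)). The other Col3a1 probes gave -2.94 and -1.01 there. In virgin mice 8 of the 11 fibrillar genes were lower in P4 than in P6 and 8 were lower in P5, and 1, Col11a1, was higher in both. Col1a1, the main chain of type I collagen, read -2.37 and -2.28 in virgin P4, -3.46 and -3.25 in virgin P5 and 4.06 and 4.69 in virgin P6. Pregnant samples read -2.13 and -2.30 in P4, -2.28 and -2.94 in P5 and 3.50 and 5.97 in P6, with 0.57 in GFPhi and 4.21 in GFPlo. All 4 P6 arrays and the GFPlo array were above every P4 and P5 array, and GFPhi lay between. P4 minus P6 in virgin mice was -6.70 ± 0.66 (SE), or 104-fold lower (adjusted p = 0.000331), and -4.87 and -2.62 by the other Col1a1 probes. Col1a2, the partner chain, read -2.35 and -2.36 in virgin P4, -3.47 and -3.15 in virgin P5 and 4.43 and 4.74 in virgin P6. The pregnant arrays gave -2.39 and -2.22 in P4, -2.15 and -2.74 in P5 and 2.99 and 4.69 in P6, with 0.73 in GFPhi and 3.05 in GFPlo. Its P6 arrays were again above all P4, P5 and GFPhi arrays, and pregnant P6 replicate 1, a saturated spot, was the lowest of them. Without that array, pregnant P5 minus P6 was -8.57 for Col1a1 and -7.77 for Lum, and both kept their calls. P5 minus P6 in virgin mice was -7.90 ± 0.47 (SE) (adjusted p = 1.30e-05). Col3a1, the homotrimer that mixes with type I fibrils, read -1.32 and -1.50 in virgin P4, -2.19 and -2.53 in virgin P5 and 6.04 and 5.67 in virgin P6. In pregnant mice it read -0.48 and -1.52 in P4, -0.96 and -2.51 in P5 and 3.78 and 6.46 in P6, with 1.24 in GFPhi and 4.96 in GFPlo. The P6 and P4 arrays did not overlap, and the difference was -7.27 ± 0.82 (SE) in virgin and -6.12 ± 0.82 (SE) in pregnant mice (adjusted p = 0.000692 and 0.00149). Without the saturated spot of pregnant P6 replicate 1 the pregnant difference was -7.46 (adjusted p = 0.000405).

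Type V collagen, whose chains join type I fibrils and limit their width, was highest in P6, and by their brightest probes Col5a1 and Col5a2 were also higher in P4 than in P5 in both conditions. Col5a1 read -0.64 and -0.65 in virgin P4, -3.42 and -3.36 in virgin P5 and 3.22 and 3.41 in virgin P6. Its pregnant values were -1.0 and -1.23 in P4, -2.87 and -2.93 in P5 and 3.90 and 3.95 in P6, with 0.16 in GFPhi and 2.62 in GFPlo. The 3 populations did not overlap in either condition, with P6 highest, P4 in the middle and P5 lowest. P4 exceeded P5 by 2.74 ± 0.13 (SE) in virgin mice (adjusted p = 1.99e-05) and lay below P6 by a difference of -3.96 ± 0.13 (SE) (adjusted p = 8.35e-06). Col5a2 read -0.42 and -0.06 in virgin P4, -3.32 and -2.81 in virgin P5 and 2.83 and 3.88 in virgin P6. In pregnancy, Col5a2 read 0.73 and 0.37 in P4, -1.39 and -1.12 in P5 and 4.88 and 3.49 in P6, with -0.06 in GFPhi and 2.48 in GFPlo. The order of populations was the same, and every pregnant P5 array was above every virgin P5 array, by 1.81 ± 0.48 (SE) (adjusted p = 0.0283). The call of its virgin P4 minus P5 difference, 2.83 ± 0.48 (SE), was lost without virgin P4 replicate 2 (2.65, adjusted p = 0.0548). The pregnant one, 1.80 ± 0.48 (SE), was lost on leaving out any of the 4 arrays compared (adjusted p from 0.0620 to 0.133). Col5a3 read 0.04 and -0.30 in virgin P4, -1.13 and -1.12 in virgin P5 and 4.73 and 4.89 in virgin P6. For Col5a3, pregnant samples gave 0.12 and 0.68 in P4, -0.85 and -0.94 in P5 and 4.39 and 5.39 in P6, with 1.75 in GFPhi and 5.0 in GFPlo. P6 and GFPlo stood apart from P4 and P5, and virgin P5 minus P6 was -5.93 ± 0.31 (SE) (adjusted p = 7.63e-06), beside -0.80 by the other Col5a3 probe. P4 minus P5 was not called in virgin mice for Col5a3 (0.99) and was 1.29 ± 0.31 (SE) in pregnant mice, a call lost without pregnant P4 replicate 2 or either P5 array (adjusted p from 0.0611 to 0.0993).

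For Col5a1 the choice of probe set the result. The other probe, A_52_P237371 in the triple helix, read 3.94 and 4.69 in pregnant P5, 2.31 and 2.36 in pregnant P6 and 0.92 and 2.18 in pregnant P4. In virgin mice it read -0.73 and 0.13 in P5, -0.23 and -0.18 in P4 and 1.37 and 1.80 in P6. Among pregnant samples P5 was thus the highest group by that probe and the lowest by the brighter probe A_51_P414637, and with the mean over both probes pregnant P4 minus P5 turned to -0.49. Col2a1, the cartilage fibril chain, had a similar split. Its brightest probe A_51_P317141 read -1.47 and -1.68 in virgin P4, -2.28 and -2.63 in virgin P5 and 5.0 and 4.69 in virgin P6. Pregnant samples read -0.91 and -1.80 in P4, -1.0 and -2.31 in P5 and 4.69 and 5.45 in P6, with 0.71 in GFPhi and 3.77 in GFPlo. P6 and GFPlo were well apart from the rest by that probe, with virgin P5 minus P6 at -7.31 ± 0.46 (SE) (adjusted p = 1.65e-05). The overlapping probe A_52_P216436 stayed between 0.27 and 1.84 on all 14 arrays, and A_52_P564148 between -0.19 and 0.15. The P6 call for Col2a1 therefore rests on 1 of 3 probes.

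**Figure D2:**
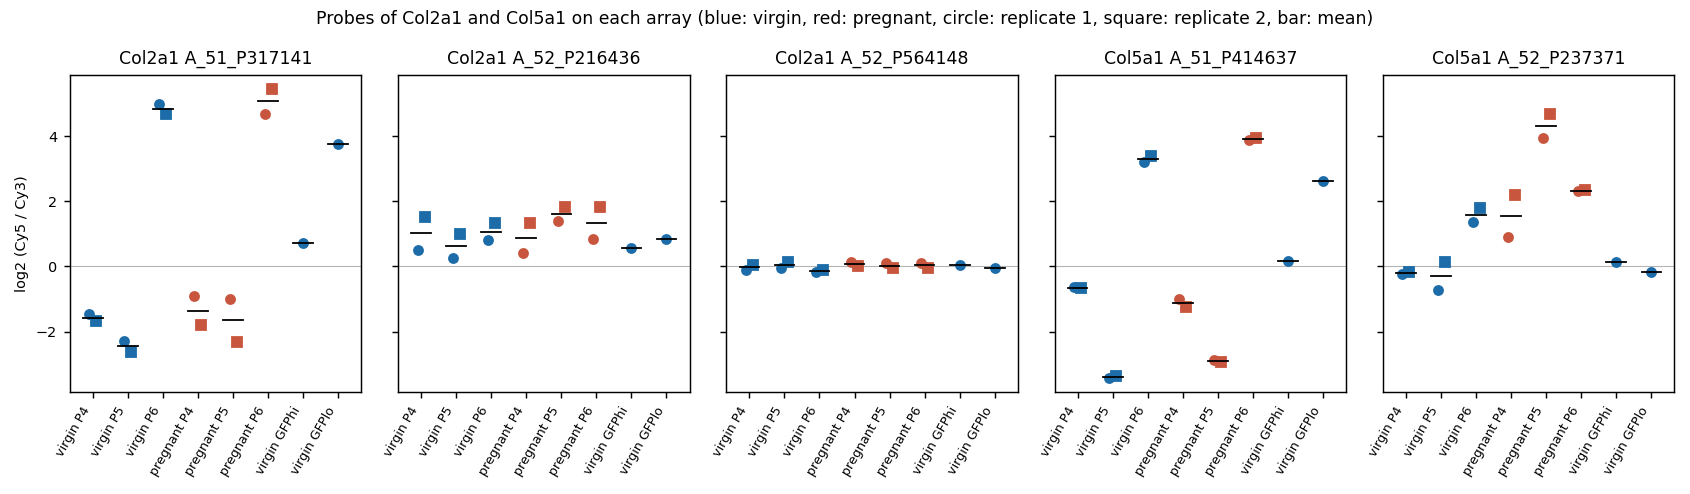
Log2 ratio of each probe of Col2a1 and Col5a1 on every array, by group. The brightest Col2a1 probe is high in P6 while the others are nearly flat, and the other Col5a1 probe peaks at 4.69 in pregnant P5 where the brightest probe reads -2.87 and -2.93.

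The remaining fibrillar chains behaved differently. Col11a1, which nucleates thin cartilage fibrils, read 3.25 and 3.95 in virgin P4, 2.32 and 2.28 in virgin P5 and 1.17 and 0.99 in virgin P6. The pregnant arrays gave 2.17 and 2.36 in P4, 0.49 and 0.12 in P5 and 1.57 and 2.35 in P6, with 4.25 in GFPhi and 1.81 in GFPlo. In virgin mice P4 was highest, P5 intermediate and P6 lowest with no overlap, whereas in pregnant mice P5 was lowest. Virgin P4 minus P6 was 2.52 ± 0.30 (SE) (adjusted p = 0.000925), and pregnant P5 minus P6 was -1.65 ± 0.30 (SE) (adjusted p = 0.00378). A weaker probe, well above background on 5 arrays, had the opposite sign in that last contrast. Col27a1, a fibrillar chain of cartilage, read -0.22 and 0.10 in virgin P4, -0.48 and -0.16 in virgin P5 and 1.10 and 2.34 in virgin P6. In pregnant mice it read 1.0 and 0.80 in P4, 0.02 and -0.03 in P5 and 1.71 and 1.81 in P6, with 0.14 in GFPhi and 0.73 in GFPlo. P6 was above P5 in both conditions, by a virgin P5 minus P6 difference of -2.03 ± 0.34 (SE) (adjusted p = 0.00372), and 1 of its 2 other probes had the opposite sign in pregnant mice. Col11a2 rose in pregnant P5 to 0.96 and 0.85 from -0.12 and -0.25 in virgin P5, while its other groups lay between -0.28 and 0.16. Its other probe, A_52_P563285, was well above background on all 14 arrays. That probe stayed between -0.26 and 0.15, with -0.05 and 0.15 in pregnant P5, so the rise rests on the brightest probe alone. Col24a1 was not called in any contrast.

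Collagens that attach to fibrils were mixed, and Col12a1 and Col14a1 had their highest mean in P6 in both conditions. In virgin mice 3 of 9 were higher and none lower in P4 than in P6 (4.9% and 5.47% of all genes). In P5, 2 were higher and 3 lower than in P6 (7.34% and 8.82% of all genes). In pregnant mice 3 were higher and 1 lower in P4 than in P6 (6.21% and 5.87% of all genes). There 1 was higher and 3 lower in P5 than in P6 (13.8% and 13.2% of all genes). Col9a2, a chain of the heterotrimer that coats cartilage fibrils, read 3.59 and 3.49 in virgin P4, 0.66 and 0.83 in virgin P5 and 0.19 and 0.31 in virgin P6. Its pregnant values were 2.51 and 2.03 in P4, 0.31 and 0.55 in P5 and 0.09 and 0.25 in P6, with 3.11 in GFPhi and 0.61 in GFPlo. P4 and GFPhi were the high samples in both conditions, without overlap with any other, and virgin P4 minus P6 was 3.29 ± 0.18 (SE) (adjusted p = 2.33e-05). Col9a3, its partner, read 3.17 and 3.76 in virgin P4, 1.14 and 1.97 in virgin P5 and -0.03 and 0.20 in virgin P6. In pregnancy, Col9a3 read 2.52 and 2.41 in P4, 0.22 and 0.48 in P5 and -0.05 and -0.13 in P6, with 1.63 in GFPhi and -0.04 in GFPlo. P4 was again the highest population, with virgin P5 in the middle, and virgin P4 minus P6 was 3.38 ± 0.29 (SE) (adjusted p = 0.000156). Its GFPlo spot was not well above background, so GFPhi was at least 3.01-fold higher. Col9a1, the chain that completes the heterotrimer, read 1.35 and 2.37 in virgin P4, 1.99 and 2.56 in virgin P5 and 0.18 and 0.38 in virgin P6. For Col9a1, pregnant samples gave 1.42 and 2.92 in P4, 3.81 and 4.11 in P5 and 0.08 and 0.34 in P6, with 1.36 in GFPhi and 0.54 in GFPlo. Its highest group was pregnant P5, above pregnant P6 by 3.75 ± 0.49 (SE) (adjusted p = 0.000665), so the 3 chains were not highest in the same group. Acan, the proteoglycan of cartilage matrix, lay between -0.18 and 0.63 on all arrays.

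Col14a1, which binds fibrils through decorin, read 6.36 and 6.24 in virgin P4, 1.54 and 1.13 in virgin P5 and 6.83 and 6.22 in virgin P6. Pregnant samples read 4.43 and 5.30 in P4, 1.09 and 0.73 in P5 and 5.44 and 7.20 in P6, with 6.95 in GFPhi and 6.07 in GFPlo. P4, P6 and both transgenic samples were all high, and the 4 P5 arrays alone were low. P4 and P6 overlapped in virgin mice, and in pregnant mice P4 lay below P6 without a call. Virgin P5 minus P6 was -5.19 ± 0.53 (SE) (adjusted p = 0.000233), and virgin P4 minus P5 was 4.97 ± 0.53 (SE) (adjusted p = 0.000583). Col16a1, found near fibrils and at basement membrane zones, read 3.47 and 3.59 in virgin P4, -0.43 and -0.26 in virgin P5 and 1.42 and 2.08 in virgin P6. The pregnant arrays gave 2.08 and 1.43 in P4, -1.01 and -0.74 in P5 and 2.53 and 2.00 in P6, with 3.11 in GFPhi and 1.75 in GFPlo. Virgin P4 was highest, P6 intermediate and P5 lowest, and the pregnant P4 and P6 arrays overlapped. P4 exceeded P5 by 3.87 ± 0.29 (SE) in virgin and 2.63 ± 0.29 (SE) in pregnant mice (adjusted p = 0.000112 and 0.000488). Col12a1, a fibril-surface collagen, was not well above background on any P5 array. On the Cy5 channel alone P5 was at least 2.17-fold lower than P6 in virgin mice and at least 3.27-fold lower in pregnant mice, beside ratio differences of -1.15 ± 0.31 (SE) and -1.55 ± 0.31 (SE), or 2.21-fold and 2.94-fold, so the bound holds for that channel and not for the ratio. The virgin call was lost under 12 of 23 alternatives and was -0.61 without virgin P6 replicate 2 (adjusted p = 0.147). Col20a1 was called once, at -0.68 ± 0.18 (SE) for pregnant P4 minus P6 (adjusted p = 0.0428), and that call was lost under 14 of 23 alternatives (-0.45 and adjusted p = 0.205 without pregnant P6 replicate 2).

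The beaded filament chains of type VI collagen, which link cells to the fibrillar matrix, were all 3 higher in P6. Col6a1 read -1.58 and -1.64 in virgin P4, -2.79 and -2.70 in virgin P5 and 1.09 and 2.15 in virgin P6. In pregnant mice it read -0.41 and -0.69 in P4, -2.21 and -2.35 in P5 and 2.86 and 2.57 in P6, with -1.27 in GFPhi and 1.33 in GFPlo. P6 was highest, P4 intermediate and P5 lowest without overlap in both conditions, and virgin P5 minus P6 was -4.37 ± 0.30 (SE) (adjusted p = 2.56e-05). Col6a2 read -1.09 and -1.13 in virgin P4, -1.86 and -1.63 in virgin P5 and 1.47 and 2.71 in virgin P6. Its pregnant values were -0.67 and -0.27 in P4, -0.33 and -0.54 in P5 and 2.79 and 3.13 in P6, with -1.11 in GFPhi and 0.86 in GFPlo. P6 again stood above both other populations, and the pregnant P5 arrays lay above the virgin ones by 1.31 ± 0.35 (SE) (adjusted p = 0.0316). Col6a3 read -0.91 and -1.10 in virgin P4, 0.83 and 1.27 in virgin P5 and 3.65 and 4.37 in virgin P6. In pregnancy, Col6a3 read -0.96 and -0.42 in P4, -1.37 and -1.81 in P5 and 4.45 and 4.56 in P6, with 0.41 in GFPhi and 3.52 in GFPlo. In virgin mice P5, not P4, was the intermediate group by this probe, and P4 minus P5 was -2.05 ± 0.29 (SE) (adjusted p = 0.00239). By the other Col6a3 probe it was -0.17, and with the mean over its probes the call was lost (adjusted p = 0.0541).

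**Figure D3:**
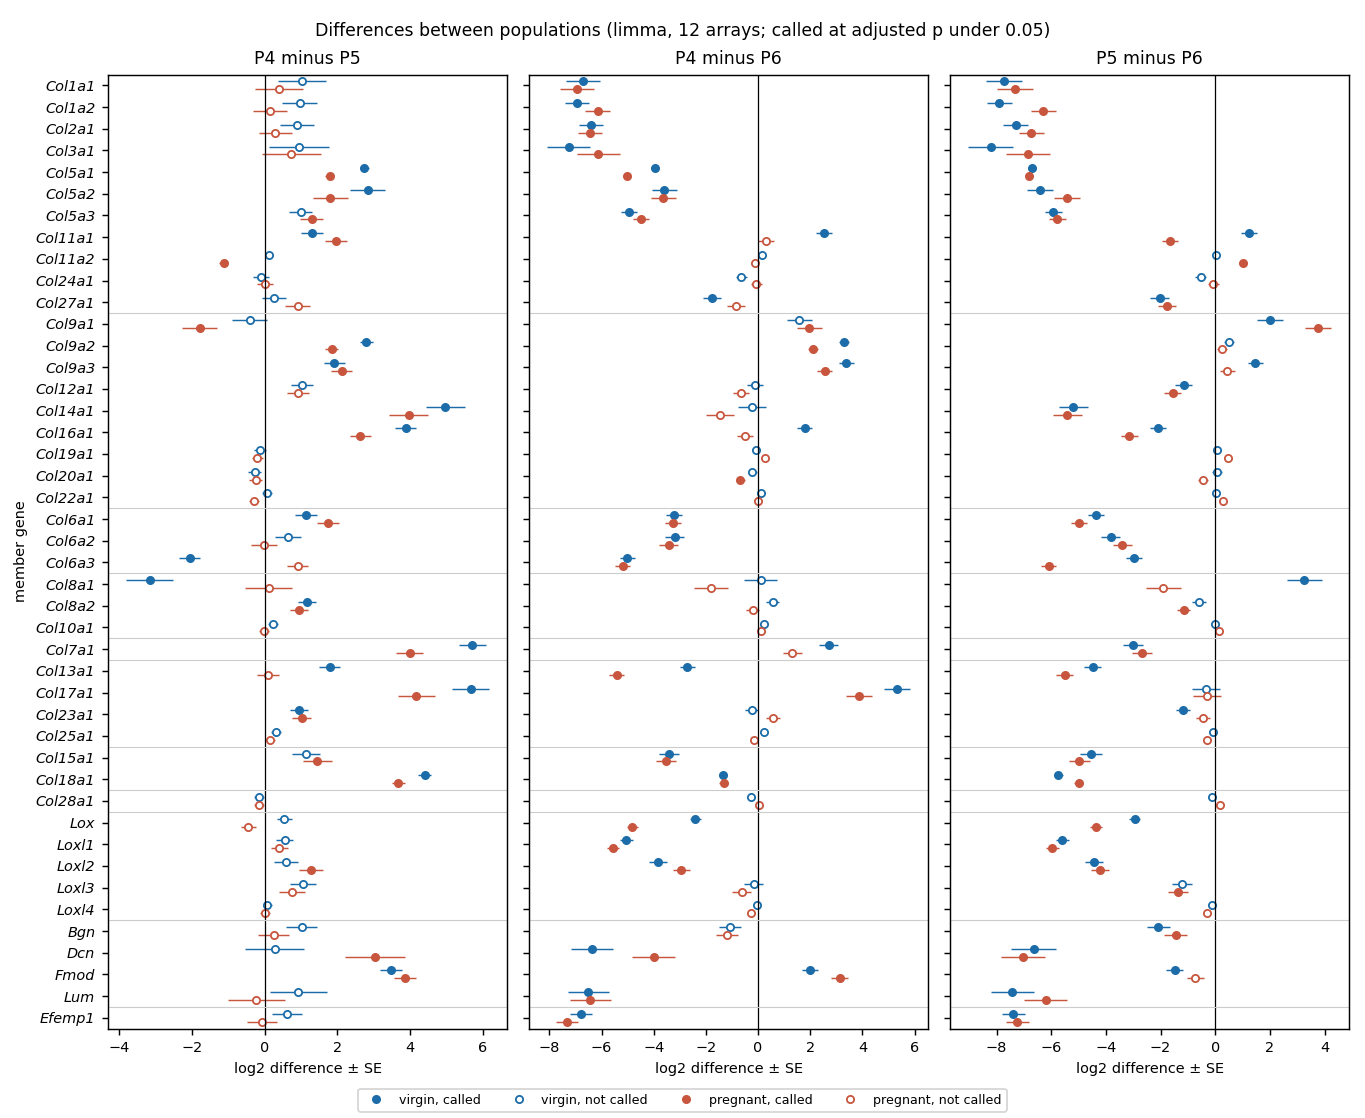
Log2 differences between populations in virgin and pregnant mice for each gene, as points with SE bars, filled where called. The 19 genes lower than P6 in both P4 and P5 in both conditions lie left of 0 in the panels against P6, and Col9a2, Col9a3, Col17a1 and Fmod lie right of 0 for P4 minus P6.

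Network-forming collagens were split. Col8a1, a chain of the hexagonal lattice of vessel walls and Descemet's membrane, read -0.92 and -2.26 in virgin P4, 2.41 and 0.73 in virgin P5 and -1.21 and -2.16 in virgin P6. For Col8a1, pregnant samples gave -3.82 and -3.31 in P4, -3.76 and -3.58 in P5 and -2.28 and -1.25 in P6, with 0.43 in GFPhi and 0.19 in GFPlo. Virgin P5 was the highest group, above virgin P6 by 3.25 ± 0.65 (SE) (adjusted p = 0.00901) and in a virgin P4 minus P5 difference of -3.16 ± 0.65 (SE) (adjusted p = 0.0152). The 2 virgin P5 arrays differed widely from each other, and leaving out virgin P5 replicate 1 ended both calls (2.41 and -2.32, adjusted p = 0.0597 and 0.0966). Leaving out virgin P4 replicate 2 ended that against P4 (-2.49, adjusted p = 0.120), and virgin P6 replicate 2 that against P6 (2.78, adjusted p = 0.0684). Its second probe had the same pattern, with 2.22 and 0.87 in virgin P5. Skeletal muscle genes were high in the same samples: 6 of the 7 on that list were higher in virgin P5 than in P6, with array means of 3.16 to 3.28 in virgin P5 and 0.07 to 0.25 in virgin P6, and their part in the Col8a1 and Col6a3 values of P5 was not tested. Col8a2 differed by less than 2 on the log2 scale, with P4 above P5 in both conditions (1.15 ± 0.25 (SE) and 0.95 ± 0.25 (SE)). The virgin value was 0.76 without virgin P5 replicate 2 (adjusted p = 0.0873), and the pregnant call was lost on leaving out any of the 4 arrays compared (adjusted p from 0.0626 to 0.127). Col10a1, the collagen of hypertrophic cartilage, was never called.

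Collagens that fasten the epithelium were highest in P4. Col17a1, the transmembrane collagen of hemidesmosomes, read 7.45 and 6.95 in virgin P4, 1.98 and 1.11 in virgin P5 and 2.41 and 1.36 in virgin P6. Pregnant samples read 5.68 and 6.99 in P4, 2.26 and 2.08 in P5 and 2.20 and 2.74 in P6, with 8.10 in GFPhi and 3.1 in GFPlo. The 4 P4 arrays and GFPhi were above every other array. P4 minus P5 in virgin mice was 5.66 ± 0.51 (SE), or 50.5-fold higher (adjusted p = 0.000238), and in pregnant mice 4.16 ± 0.51 (SE) (adjusted p = 0.000743). A second Col17a1 probe had 3.68 and 3.53 in virgin P4 and 0.33 and 0.14 in virgin P5. Col7a1, which forms the anchoring fibrils below the basement membrane, read 5.0 and 5.21 in virgin P4, -0.53 and -0.67 in virgin P5 and 1.74 and 3.05 in virgin P6. The pregnant arrays gave 4.27 and 4.29 in P4, 0.56 and 0.03 in P5 and 2.92 and 3.03 in P6, with 5.06 in GFPhi and 3.15 in GFPlo. P4 was highest, P6 in the middle and P5 lowest in both conditions without overlap, but pregnant P4 minus P6 was 1.31 and was not called. Virgin P4 minus P5 was 5.71 ± 0.37 (SE), or 52.2-fold higher (adjusted p = 5.53e-05), and pregnant P5 minus P6 was -2.68 ± 0.37 (SE) (adjusted p = 0.000869). All 12 basal markers were also higher in virgin P4 than in P5, and their part was not tested.

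**Figure D4:**
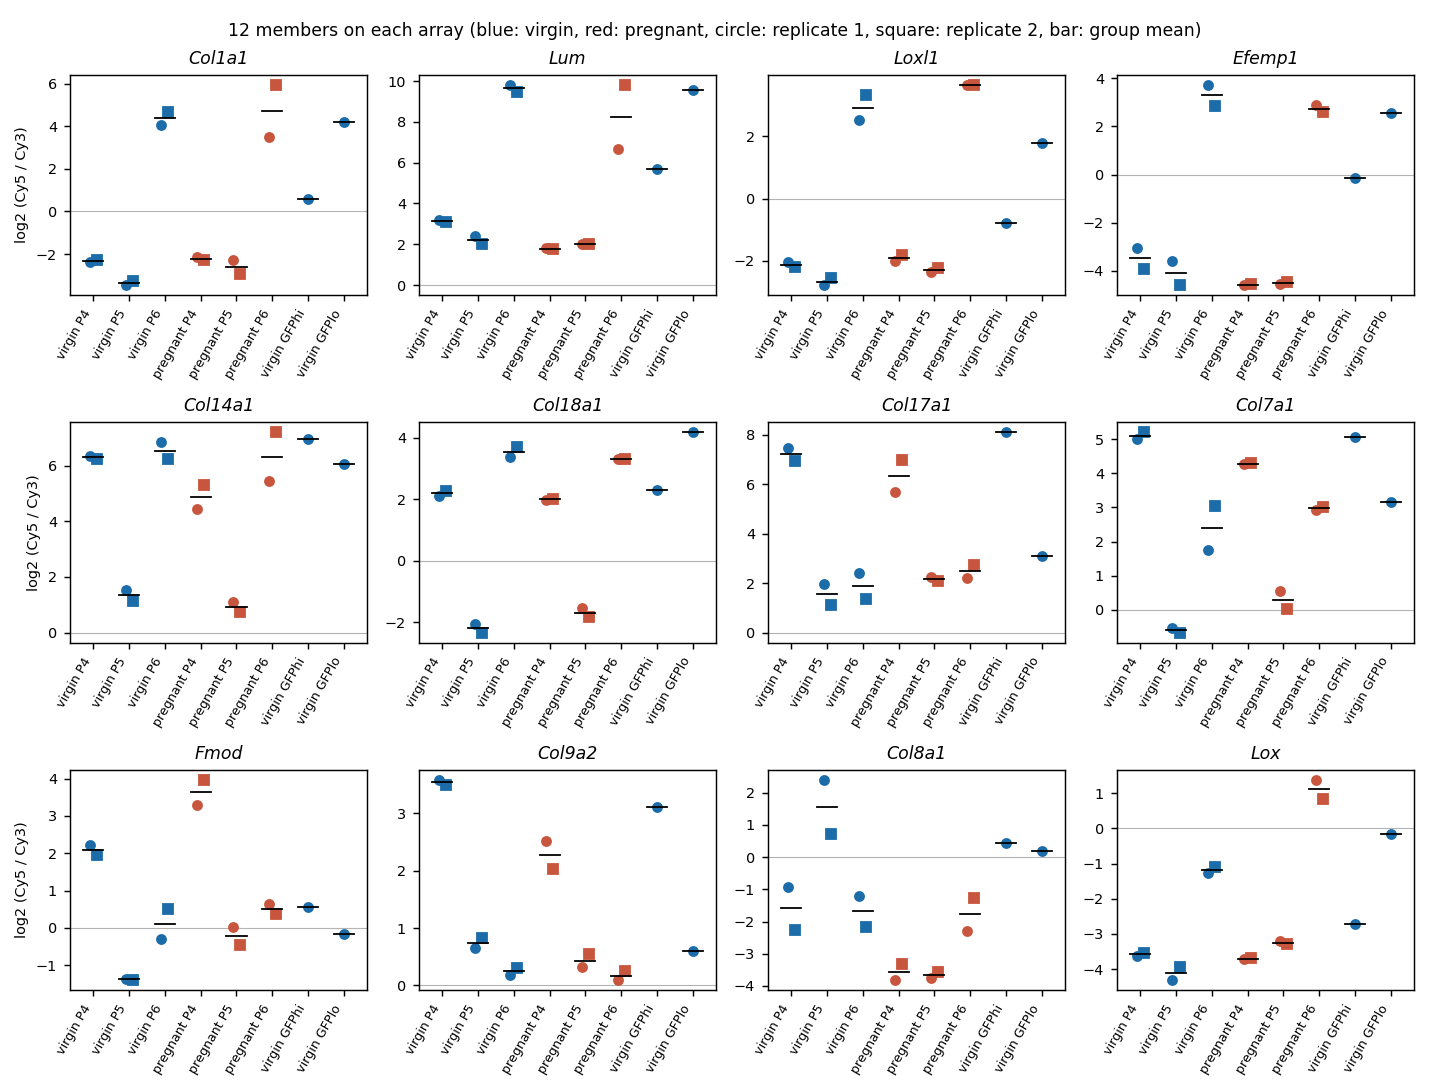
Log2 ratio over the reference mix on each array, by group, for 12 genes, with y axes that differ between panels. Col1a1, Lum, Loxl1 and Efemp1 separate P6 from P4 and P5, Col17a1 and Col7a1 separate P4 from P5, and Col8a1 falls in pregnant P5.

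Of the other membrane-bound collagens Col13a1 stood high in P6, and so did both multiplexins, of which type XVIII carries an anti-angiogenic C-terminal fragment. Col13a1, a transmembrane collagen of adhesion sites, read 2.15 and 2.19 in virgin P4, 0.38 and 0.39 in virgin P5 and 4.33 and 5.43 in virgin P6. In pregnant mice it read 0.46 and 0.15 in P4, 0.23 and 0.22 in P5 and 5.71 and 5.76 in P6, with 1.96 in GFPhi and 6.54 in GFPlo. P6 and GFPlo were highest, and by this probe virgin P4 lay above both P5 and its own pregnant samples. P4 minus P6 was -2.71 ± 0.30 (SE) in virgin mice and -5.43 ± 0.30 (SE) in pregnant mice (adjusted p = 0.000617 and 1.84e-05). The other Col13a1 probe, well above background on 7 arrays, read 0.05 on the 1 virgin P4 array with a value. It read -0.05 and 0.0013 in virgin P5 and -0.06 and -0.07 in pregnant P4. With local backgrounds as given, the virgin calls of Col13a1 for P4 minus P5, P4 minus P6 and P5 minus P6 were lost. Col15a1, which sits at the outer face of basement membranes, read 2.42 and 2.16 in virgin P4, 1.29 and 1.01 in virgin P5 and 5.77 and 5.63 in virgin P6. Its pregnant values were 2.13 and 2.97 in P4, 1.04 and 1.17 in P5 and 5.46 and 6.69 in P6, with 2.41 in GFPhi and 5.69 in GFPlo. P6 and GFPlo were above all others, P4 was next and P5 lowest, and virgin P5 minus P6 was -4.55 ± 0.39 (SE) (adjusted p = 8.87e-05). Col18a1 read 2.11 and 2.27 in virgin P4, -2.07 and -2.34 in virgin P5 and 3.38 and 3.69 in virgin P6. In pregnancy, Col18a1 read 1.98 and 2.00 in P4, -1.54 and -1.84 in P5 and 3.31 and 3.31 in P6, with 2.28 in GFPhi and 4.18 in GFPlo. P5 alone was below 0, while P4 lay close under P6, and the 3 populations did not overlap. Virgin P4 minus P5 was 4.39 ± 0.17 (SE) and virgin P4 minus P6 was -1.35 ± 0.17 (SE) (adjusted p = 9.68e-06 and 0.00126). Col23a1 was higher in P4 than in P5 in both conditions (0.95 ± 0.26 (SE) and 1.02 ± 0.26 (SE)), with 0.63 and no call without virgin P4 replicate 2 (adjusted p = 0.310) and 0.81 and no call without pregnant P4 replicate 1 (adjusted p = 0.136). The virgin call was lost under 16 of 23 alternatives. Col25a1 was not called.

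Among the cross-linkers, 3 of 5 lysyl oxidases followed the fibrillar chains. Lox, the founding member, read -3.62 and -3.55 in virgin P4, -4.31 and -3.93 in virgin P5 and -1.28 and -1.08 in virgin P6. For Lox, pregnant samples gave -3.71 and -3.69 in P4, -3.20 and -3.29 in P5 and 1.39 and 0.85 in P6, with -2.72 in GFPhi and -0.17 in GFPlo. P6 was the highest group in both conditions and pregnant P6 was above virgin P6, while P4 and P5 stayed low. P4 minus P6 was -2.40 ± 0.20 (SE) in virgin mice (adjusted p = 0.000154) and -4.82 ± 0.20 (SE) in pregnant mice (adjusted p = 4.73e-06). Loxl1, which acts with elastic fibres, read -2.05 and -2.20 in virgin P4, -2.78 and -2.56 in virgin P5 and 2.52 and 3.33 in virgin P6. Pregnant samples read -2.00 and -1.80 in P4, -2.36 and -2.25 in P5 and 3.67 and 3.65 in P6, with -0.79 in GFPhi and 1.78 in GFPlo. P6 and GFPlo were high, and every P4 and P5 array was negative, with virgin P5 minus P6 at -5.60 ± 0.24 (SE) (adjusted p = 2.97e-06). Loxl2, which cross-links type IV collagen too, read -1.36 and -1.75 in virgin P4, -1.99 and -2.32 in virgin P5 and 2.44 and 2.11 in virgin P6. The pregnant arrays gave 0.44 and -0.32 in P4, -1.16 and -1.29 in P5 and 3.42 and 2.59 in P6, with -0.65 in GFPhi and 0.50 in GFPlo. P6 was highest in both conditions, and P4 was above P5 in pregnant mice by 1.28 ± 0.33 (SE) (adjusted p = 0.0250; 0.90 and adjusted p = 0.153 without pregnant P4 replicate 1), with virgin P4 minus P6 at -3.83 ± 0.33 (SE) (adjusted p = 0.000170). Loxl3 was not well above background in pregnant P5, where the difference from P6 was -1.37 ± 0.36 (SE), or 2.58-fold by the ratio and at least 2.85-fold on the Cy5 channel alone. The call was lost without pregnant P5 replicate 2 (-1.19, adjusted p = 0.126) or pregnant P6 replicate 1 (-0.89, adjusted p = 0.125). Loxl4 was not called, and its values lay within those of the 7 genes never called, from -0.38 to 1.55.

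The proteoglycans and the fibulin showed both patterns. Lum, lumican, read 3.21 and 3.07 in virgin P4, 2.42 and 2.02 in virgin P5 and 9.83 and 9.47 in virgin P6. In pregnant mice it read 1.83 and 1.74 in P4, 2.01 and 2.03 in P5 and 6.65 and 9.79 in P6, with 5.70 in GFPhi and 9.57 in GFPlo. P6 and GFPlo were the highest samples, GFPhi was next and P4 and P5 were lowest. Virgin P4 minus P6 was -6.51 ± 0.79 (SE), or 91.1-fold lower (adjusted p = 0.00104). Dcn, decorin, read 1.32 and 1.12 in virgin P4, 1.35 and 0.56 in virgin P5 and 7.87 and 7.32 in virgin P6. Its pregnant values were 1.23 and 1.80 in P4, -1.55 and -1.48 in P5 and 3.96 and 7.08 in P6, with 3.55 in GFPhi and 7.02 in GFPlo. P6 and GFPlo were highest, and the pregnant P5 arrays alone were below 0. Virgin P5 minus P6 was -6.64 ± 0.82 (SE) (adjusted p = 0.000657). Pregnant P4 minus P6 was -4.0 ± 0.82 (SE) (adjusted p = 0.0134), which includes the saturated spot of pregnant P6 replicate 1. It was -5.56 without that spot (adjusted p = 0.000171) and -2.44 without pregnant P6 replicate 2, where the saturated spot stood alone. The call was lost without pregnant P4 replicate 1 (-3.72, adjusted p = 0.0783).

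Bgn, biglycan, read -1.45 and -1.65 in virgin P4, -2.59 and -2.55 in virgin P5 and -1.14 and 0.20 in virgin P6. In pregnancy, Bgn read -0.38 and -0.11 in P4, -0.48 and -0.51 in P5 and 1.42 and 0.48 in P6, with -1.69 in GFPhi and -1.06 in GFPlo. P6 was above P5 in both conditions, by a P5 minus P6 difference of -2.09 ± 0.42 (SE) in virgin mice (adjusted p = 0.00951), and that call was lost without virgin P5 replicate 1 or 2 (adjusted p = 0.0548 and 0.0543). In pregnant mice it was -1.44 ± 0.42 (SE), a call lost under 9 of 23 alternatives and at -0.97 without pregnant P6 replicate 1 (adjusted p = 0.197). Fmod, fibromodulin, which binds type I fibrils and lysyl oxidase, read 2.23 and 1.95 in virgin P4, -1.36 and -1.40 in virgin P5 and -0.29 and 0.50 in virgin P6. For Fmod, pregnant samples gave 3.29 and 3.97 in P4, 0.01 and -0.46 in P5 and 0.64 and 0.38 in P6, with 0.57 in GFPhi and -0.16 in GFPlo. P4 was the highest population in both conditions, above P5 by 3.47 ± 0.31 (SE) in virgin and 3.86 ± 0.31 (SE) in pregnant mice (adjusted p = 0.000243 and 0.000119). GFPhi, unlike P4, was close to the P6 arrays. Efemp1, fibulin-3, an elastic fibre protein, read -3.04 and -3.93 in virgin P4, -3.59 and -4.59 in virgin P5 and 3.74 and 2.84 in virgin P6. Pregnant samples read -4.59 and -4.56 in P4, -4.53 and -4.47 in P5 and 2.89 and 2.59 in P6, with -0.15 in GFPhi and 2.57 in GFPlo. P6 was above all P4 and P5 arrays by a wide gap, with GFPhi between, and virgin P5 minus P6 was -7.38 ± 0.41 (SE) (adjusted p = 1.05e-05). For 24 of the 44 genes there were 28 further probes above background, and those of the called genes had the same sign in 10 of 10 cases for virgin P4 minus P5, 20 of 21 for virgin P4 minus P6 and 22 of 23 for virgin P5 minus P6. In pregnant mice the share was 11 of 12, 16 of 17 and 18 of 22, the exceptions being Col2a1, Col5a1, Col11a1 and Col27a1. A shared sign was not always a shared size. For virgin P4 minus P6, further probes gave -0.04 (Col2a1), -0.44 (Dcn) and -0.73 (Col1a2) where the brightest gave -6.42, -6.37 and -6.94. Those of Loxl2 (-3.89 beside -3.83) and Col6a2 (-3.75 beside -3.20) were close.

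Fewer of the genes were called between pregnant and virgin mice than between populations. In P4, 2 rose and 5 fell with a median of 0.01, and 3.72% of all genes were called, 1.48% higher and 2.23% lower. Loxl2 rose by 1.62 ± 0.33 (SE) and Fmod by 1.54 ± 0.31 (SE) (adjusted p = 0.0356 and 0.0347). The 5 that fell were Col13a1 (-1.86 ± 0.30 (SE)), Col16a1 (-1.77 ± 0.29 (SE)), Col11a1 (-1.33 ± 0.30 (SE)), Col8a2 (-1.31 ± 0.25 (SE)) and Col9a2 (-1.27 ± 0.18 (SE)). That of Col11a1 lost its call under 19 of 23 alternatives. With the replicate number as a block within each condition, 13 were called in P4, 3 higher and 10 lower, among them all 7. Without either virgin P4 array, none of the 7 was called (adjusted p from 0.0712 to 0.284). In P6 only Lox changed (0.207% of all genes were called, 0.0507% higher and 0.156% lower), rising by 2.30 ± 0.20 (SE) (adjusted p = 0.00579), and the replicate block gave 5, Lox among them. That call was lost with each array centred on its median (2.21, adjusted p = 0.584), with the slide as a block (2.38, adjusted p = 0.0593) and without scan 3 (2.03, adjusted p = 0.102).

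In P5, 8 rose and 5 fell with a median of 0.26, and 21.4% of all genes were called, 10.7% in each direction. Col8a1 fell most, by a pregnant minus virgin difference of -5.24 ± 0.65 (SE) (adjusted p = 0.000947), and its second probe also fell, from 2.22 and 0.87 to -3.12 and -3.43. Col6a3 followed at -2.64 ± 0.29 (SE) (adjusted p = 0.000522), where its other probe, well above background on 10 arrays, had the opposite sign. Col11a1 (-1.99 ± 0.30 (SE)), Col9a3 (-1.21 ± 0.29 (SE)) and Col8a2 (-1.10 ± 0.25 (SE)) fell too. Bgn rose most, by 2.07 ± 0.42 (SE) (adjusted p = 0.00970; 0.0601 without virgin P5 replicate 1), and Col5a2, Col9a1, Col6a2, Fmod, Col11a2, Lox and Col5a1 rose by 1.81, 1.68, 1.31, 1.15, 1.09, 0.87 and 0.49. With the replicate number as a block within each condition 14 genes were called in P5, but not Col9a1 (1.04), Col6a2 (0.98) or Fmod (1.09), with adjusted p = 0.0595, 0.0583 and 0.0552. The rise of Col5a1 turned to -0.10 with each array centred on its median. That of Col11a2 was 0.12 by its other probe. Col8a1, Col6a3, Col11a1 and Col11a2 kept their calls whichever array was left out, and each of the other 9 lost it without at least 1 of the 4 P5 arrays (adjusted p from 0.0510 to 0.218). Col9a3 was then at -0.79 (without virgin P5 replicate 2) and Col8a2 at -0.71 (without virgin P5 replicate 1). Scan 2 was the only scan with both conditions, and within it the called genes of P4, P5 and P6 kept their direction. Their virgin and pregnant arrays did not overlap, so this direction was fixed and does not test the scan. All 7 skeletal muscle markers fell in P5 with pregnancy, to array means of -0.06 and 1.02, and 11 of 14 luminal markers fell. Their part in the collagen changes was not tested.

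The pregnancy effect differed among the 3 populations for 9 of the 44 genes by limma's moderated F test (7.98% of all genes were called). They were Col5a1, Col11a1, Col11a2, Col9a2, Col16a1, Col6a3, Col8a1, Col13a1 and Lox. For Lox, the effect was 2.30 in P6, 0.87 in P5 and -0.12 in P4. For Col8a1 it was -5.24 in P5, -1.97 in P4 and -0.08 in P6, and only the first was called.

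**Figure D5:**
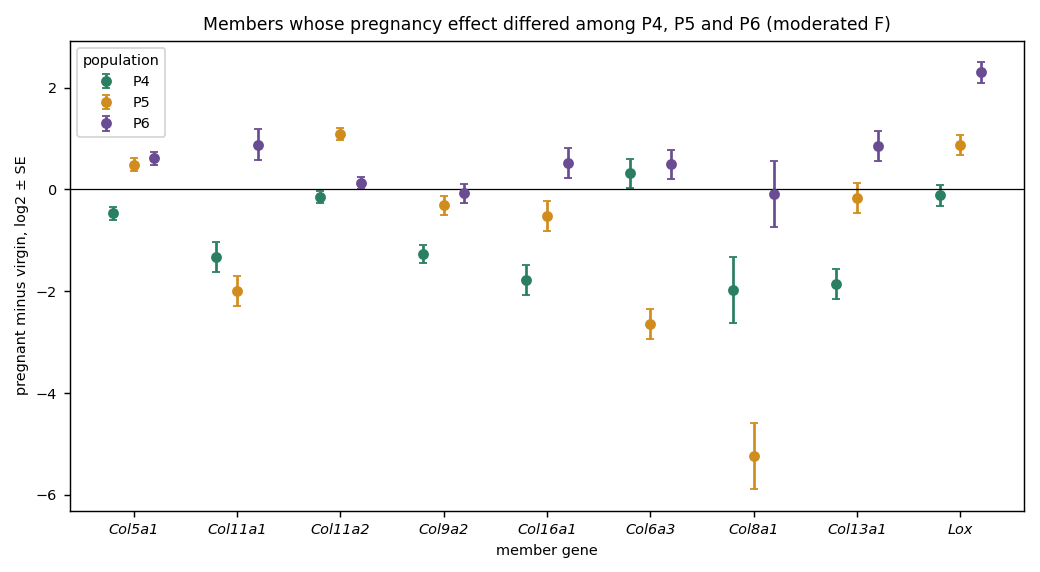
Log2 differences between pregnant and virgin mice (points, with SE bars) in P4, P5 and P6 for the 9 genes whose pregnancy effect differed among the populations. The largest is -5.24 for Col8a1 in P5, and Lox stands at 2.30 in P6.

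Across sorting schemes, samples enriched for stem cells by their labels (P4 and GFPhi) were set against the depleted ones (P5, P6 and GFPlo). In virgin mice 2 genes were called, both higher (1.64% of all genes were called, 1.53% higher and 0.11% lower): Col17a1 at 5.51 ± 0.45 (SE) and Col9a2 at 2.88 ± 0.18 (SE) (adjusted p = 3.50e-05 and 4.22e-06). In pregnant mice, where P4 was set against P5 and P6, 3 were called, all higher (2.49% of all genes were called, 2.25% higher and 0.237% lower): Col17a1 at 4.01 ± 0.53 (SE), Fmod at 3.49 ± 0.58 (SE) and Col9a2 at 1.97 ± 0.22 (SE). The fit gave 1 mean to all enriched and 1 to all depleted samples of a condition. Its spread therefore held the differences between the populations put together, such as P5 and P6, and not only those between replicates. With 1 mean for each of the 8 groups, 26 were called in virgin mice, 8 higher and 18 lower, and 22 in pregnant mice, 8 higher and 14 lower. The Fmod call was lost without pregnant P4 replicate 2 (3.15, adjusted p = 0.109). GFPhi and GFPlo were single arrays, so their difference has no test. GFPhi was at least 2-fold lower than GFPlo for 20 genes (3% of all genes were) and at least 2-fold higher for 6 (3.34%). The median over the 44 genes was -0.51, beside 0.00499 for all genes, and was -1.08 with the scanner's ratios and with the authors' deposited table. The largest were Col17a1 at 5.01 and Col13a1 at -4.58. Fibroblast markers averaged 0.47 in GFPhi and 2.42 in GFPlo, and basal markers 4.57 and 1.30.

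Genes that make, trim and bind collagen were also lower in P4 and P5 than in P6 in many cases. Of 19 measured genes that fold and modify the chains, in virgin mice 9 were lower and 1 higher in P4 than in P6, and 13 were lower and none higher in P5. Of all genes, 5.47% were called lower and 4.9% higher in P4, and 8.82% lower and 7.34% higher in P5. P4ha2, a prolyl hydroxylase subunit, was lower in P4 by a difference of -2.89, and Sparc, a collagen-binding secreted protein, and Serpinh1, the collagen chaperone HSP47, were lower in P5 (-6.30 and -5.85). Of 6 measured procollagen processing genes, 3 were lower in P4 and 4 in P5 with 1 higher, among them Pcolce2, a procollagen C-proteinase enhancer (-5.63 and -6.17), and Adamts2, the N-proteinase (-7.11 in P5). Of 9 other small leucine-rich proteins, 6 were lower in P4 and 6 in P5, led by Ogn, osteoglycin (-5.26 and -6.11). Of 14 elastic fibre and fibril partners, 10 were lower in P4 and 12 in P5, with Tnxb, tenascin-X, at -4.97 in P4 and Fbn1, fibrillin-1, at -6.75 in P5. Of 7 collagen receptors, 3 were lower and 1 higher in each of P4 and P5, with Itga11, an integrin of fibrillar collagen, at -5.57 and -6.51 and Ddr2, a receptor kinase for fibrillar collagen, at -3.65 and -4.66. P4 stood above P5 for 8 of the 19, 1 of the 6, 2 of the 9, 8 of the 14 and 2 of the 7, with Adamts3 alone of these lists lower (-1.03), where 6.57% of all genes were called higher and 4.82% lower. Sparc (4.33), Serpinh1 (3.52) and Postn, periostin (5.11), had large differences there.

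In pregnant mice, P4 was lower than P6 for 9 of 19, 4 of 6, 7 of 9, 12 of 14 and 3 of 7 genes of these lists, in the same order, and higher for 2, 0, 0, 0 and 2, with 5.87% of all genes called lower and 6.21% higher. P5 was lower than P6 for 14, 4, 8, 13 and 4, and higher for 1, 0, 1, 0 and 0, with 13.2% of all genes called lower and 13.8% higher. Fbln1, an elastic fibre fibulin, was at -6.27 in P4 and Fbn1 at -6.88 in P5. With pregnancy, 6 of the 19 folding and modifying genes rose in P5, where 10.7% of all genes were called higher: P4hb, a subunit of prolyl hydroxylase, by 2.12 and Mia3, needed to export procollagen from the endoplasmic reticulum, by 1.42, with P4ha1 (0.98), Plod2 (0.87), P3h2 (0.79) and Ppib (0.78) less. The replicate block ended the call of P3h2 (0.56, adjusted p = 0.0631). In P5 Prelp (-2.30), Bmp1, the C-proteinase (-1.83), Adamts3 (-1.62), Ddr1 (-1.40) and Efemp2 (-0.94) fell, and Epyc (0.76) and Chad (0.55) rose. In P4 Fbln1 (-2.53), Mfap2 (-1.64) and Fbln2 (-1.59) fell and Ogn rose (1.58), and in P6 Kera fell (-1.76), a difference that turned to 0.0529 with local backgrounds as given (adjusted p = 0.997).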

How the data were processed

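Sorted mouse mammary RNA was hybridised in Cy5 against a common reference RNA in Cy3 on 14 arrays. Per the file headers, Agilent Feature Extraction 9.5.3.1 made the scanner files, which as deposited give the mean and local background intensity of each spot in both channels on a linear scale and a log10 ratio of Cy5 over Cy3. Outlier, saturation and well-above-background flags as deposited have no unit. Log2 ratios in a separate table were deposited by the authors. They followed the scanner's own ratios (correlations from 0.990 to 1.00, column medians from -0.0182 to 0.102) and served as an alternative. They were not centred and ran as Cy5 over Cy3.

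In R 4.3.3 with limma 3.58.1, the median local background of an array replaced those marked as outliers (412 to 1659 on each array and channel), background was corrected by normexp (offset 50) and ratios were normalized by loess with control spots at weight 0. A probe was kept if its Cy5 signal was well above background on both arrays of any of the 6 groups with replicates, and the probe with the brightest mean stood for its gene. Groups were fitted with lmFit and eBayes over 12 arrays (6 residual degrees of freedom), the enriched and depleted comparison over all 14 (10). Probes whose file name was not that of a collagen but whose accession pointed to 1 (4) were not used.

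Within a condition, same-numbered arrays of the 3 populations deviated together (correlations from 0.304 to 0.688), whereas across conditions they did not (from -0.208 to 0.146). A block for the number therefore does not pair pregnant with virgin arrays. Same-numbered arrays of a condition also shared a scan and, except for pregnant P4 replicate 2, a slide. A pairing of samples thus cannot be told apart from a slide or scan effect. The virgin and pregnant arrays of P5 shared no slide, nor did those of P6. Tested on simulated data for virgin P4 minus P6, the fit recovered 46% of genes changed by 1 on the log2 scale, 76% by 2, 96% by 4 and 100% by 6. It made 4 false calls. Only 50 of 23502 genes were changed at each size, and the simulated arrays varied independently, unlike the real ones. Recovery in the real data can therefore differ. Values on every array are given for genes with a called difference of at least 2 in the population or pregnancy contrasts, the others by range and count. Of the pathway lists, the 2 called genes with the largest difference per list and population contrast could be named, and every called gene for pregnancy. The genes and the lists were chosen with earlier results of these data known. Alternatives covered the normalization, the background, the probe rule, the filter, the slide, scan and replicate blocks, the scan 3 arrays and leaving out each array. The number of arrays limits the precision.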

Additional observations from a re-analysis of the deposited data

Results flagged for a closer look

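For 9 of the 44 genes the pregnancy effect differed among P4, P5 and P6 by limma's moderated F test with Benjamini-Hochberg adjusted p below 0.05. Col6a3 had F = 37.1 (adjusted p = 0.00491) and fell in P5. Lox had F = 36.1 (adjusted p = 0.00525) and rose most in P6. Col11a2 had F = 30.1 (adjusted p = 0.00738) and rose in P5 by 1.09, beside 0.12 by its other probe. Col11a1 had F = 25.5 (adjusted p = 0.0101) and fell in P4 and P5, beside -0.22 and -0.14 by its other probe. Its call in P4 was lost under 19 of 23 alternatives. Col13a1 had F = 21.2 (adjusted p = 0.0149) and fell in P4 (-1.86, beside -0.12 by its other probe). Col5a1 had F = 20.5 (adjusted p = 0.0159), with effects of 0.49 in P5, 0.61 in P6 and -0.47 in P4, of which only that in P5 was called. By its other probe these effects were 4.62, 0.75 and 1.76. Col8a1 had F = 16.1 (adjusted p = 0.0257) and fell in P5. Col16a1 had F = 15.1 (adjusted p = 0.0294) and fell in P4. Col9a2 had F = 12.04 (adjusted p = 0.0459) and fell in P4. None of these 9 calls was kept under every alternative run. Skeletal muscle and luminal markers also moved in P5 with pregnancy, and their part was not tested.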

How the results depend on the processing

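The population contrasts with P6 (27 and 31 calls in virgin, 25 and 30 in pregnant mice) stayed within 1.5 times their counts under all alternatives run, with 18 of 27, 19 of 31, 17 of 25 and 24 of 30 calls kept under every one. Leaving out 1 array gave 26 to 29, 25 to 32, 23 to 26 and 28 to 30. Virgin P4 minus P5 (17) ranged from 11 to 20 on leaving out 1 array. Pregnant P4 minus P5 (20) gave 13 with median centring, 13 with local backgrounds as given and 13 without scan 3, and 12 to 23 on leaving out 1 array.

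For pregnancy in P4 (7), median centring gave 0, the scanner's ratios and the authors' table each gave 2, local backgrounds as given 4, the replicate block 13, the fit without scan 3 gave 2, and leaving out 1 array 0 to 8. In P5 (13), median centring gave 4 and the slide block 8, and leaving out 1 array 5 to 15. In P6 (1), median centring, the slide block and the fit without scan 3 each gave 0, the replicate block 5, and leaving out 1 array 1 to 3. The F test (9) gave 1 with median centring, 4 without scan 3 and 5 to 10 on leaving out 1 array. The replicate block ended no call of the population contrasts. Calls kept under every alternative were 9 of 17 for virgin and 8 of 20 for pregnant P4 minus P5. For pregnancy they were 0 of 7 in P4, 2 of 13 in P5 and 0 of 1 in P6, and 0 of 9 for the F test. For enriched minus depleted they were 2 of 2 in virgin and 0 of 3 in pregnant mice.

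Enriched minus depleted in virgin mice (2) gave 4 without GFPhi and 26 with 1 mean for each of the 8 groups, and 2 to 4 on leaving out 1 array. In pregnant mice (3) it gave 1 without scan 3 and 22 with 1 mean for each of the 8 groups, and 2 to 4 on leaving out 1 array. The GFPhi minus GFPlo median (-0.51) was -1.08 with the scanner's ratios and -1.08 with the series table. Col5a1 reversed in pregnant P4 minus P5 (-0.49 with the mean over probes) and in P5 with pregnancy (-0.10 with median centring), and Kera in P6 with pregnancy (0.0529 with local backgrounds as given). The cause was not tested. The 2 arrays per group and the saturated spots of scan 3 limit these values.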
